A study of Drosophila melanogaster with 51 samples.

Results

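Fbp2 (fat body protein 2) was measured by 1 of the 6621 entries of a 2-colour cDNA microarray table and was 1 of the 4698 genes named in it. The entry was found by its gene symbol in the platform annotation, and it had a value on 48 of the 51 arrays. Each array set RNA of mutant Drosophila melanogaster larvae against RNA of age-matched wild type (spelled w118 in the labels) in the other dye. The mutants were csn4null, which affects the subunit CSN4 of the COP9 signalosome, and csn5null, csn51 and csn53, which affect the subunit CSN5. The labels name the genotypes without describing the lesions. Larvae were taken 60, 72 and 96 h after egg deposition, which gave 12 groups. In the order 60, 72 and 96 h the arrays numbered 3, 4 and 4 for csn4null and 5, 4 and 4 for csn5null. They numbered 4, 4 and 5 for csn51 and 5, 4 and 5 for csn53. Mutant RNA was in Cy5 on 28 arrays and in Cy3 on 23.

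The fat body of the larva stores fat, glycogen and protein and secretes much of the blood protein, tasks that vertebrates divide between liver and adipose tissue. Fbp2 is a gene of the fat body of the third larval instar that depends on the steroid hormone ecdysone, and its protein is related to alcohol dehydrogenase. Ecdysone binds the nuclear receptor pair EcR and usp, which switches on early regulators such as broad (br), and these in turn control late tissue genes. The COP9 signalosome is a protein complex that strips Nedd8, a relative of ubiquitin, off the cullin subunits of ubiquitin ligases, and CSN5 holds its catalytic site.

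All values are deposited log ratios, taken here as log2 of mutant over wild type. A value of -1 is thus a fold of 2 lower in the mutant. No source used here states the direction, which was read off CSN4, with fitted values of -2.39, -2.47 and -2.19 in csn4null at 60, 72 and 96 h, and CSN5, with fitted values of -4.45, -2.94 and -2.03 in csn5null at those ages. The direction is therefore likely and not given, and these 2 genes are no independent check of it. If it is wrong, each fall of Fbp2 is a rise. The table holds no intensities, so the level of Fbp2 in either genotype is unknown, as is the signal over background. In RNA of whole larvae, fewer fat body cells and less Fbp2 RNA per cell cannot be told apart.

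3 csn5null arrays stood apart from their groups. Over all features, replicate 5 at 60 h, replicate 3 at 72 h and replicate 3 at 96 h had median correlations of -0.012, -0.005 and 0.072 with the other arrays of their groups, while every other array reached at least 0.523. CSN5 itself was at -4.78, -0.32 and -0.01 on these arrays, so the last 2 went against the label of the library in the targeted gene. Values of Fbp2 and of many, though not all, other named genes in csn5null at 96 h are given with and without them.

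At 60 h Fbp2 lay close to 0 on most arrays. In csn5null it had log2 ratios of 0.14, 0.11, 0.09, -0.79 and 0.05 in replicates 1 to 5. In csn51 they were 0.02, -0.06, -0.13 and 0.08, and in csn53 -0.40, -0.11, 0.32 and 0.11, with no value on replicate 4. The lowest value, -0.79, was on replicate 4 of csn5null, which is not one of the arrays that stood apart, and the values of the 3 genotypes overlapped. In csn4null only replicate 3 had a value, 0.81, which was the highest at this age and could not be tested. The other 3 genotypes averaged -0.08 ± 0.40 (csn5null, n = 5), -0.02 ± 0.09 (csn51, n = 4) and -0.02 ± 0.31 (csn53, n = 4; all SD). In limma's test across all features, with 1 coefficient per group and 1 for the dye, the fitted log2 ratios were -0.15 ± 0.60 (SE; adjusted p = 0.994), -0.02 ± 0.67 (adjusted p = 0.982) and -0.02 ± 0.67 (adjusted p = 0.987). In the labels all 5 csn5null arrays and 3 of the 4 csn51 arrays at this age carry wild-type number 1. None of the 3 values passed the threshold of 0.05 for the Benjamini-Hochberg adjusted p. At this age 3.39% of all features tested in csn5null, 22.9% in csn51 and 24.9% in csn53 passed it as lower.

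At 72 h Fbp2 was below 0 on 15 of 16 arrays and below -1 on 12, with wide spread inside every genotype. The log2 ratios in replicates 1 to 4 were -2.37, -1.27, -0.25 and -2.03 in csn4null. They were -2.36, -1.40, -0.17 and -1.05 in csn5null, where replicate 3 is one of the arrays that stood apart. In csn51 the arrays split into a pair near -4.3 and a pair near 0, with -4.29, -4.38, 0.01 and -0.25. In csn53 the values were -4.19, -2.83, -1.13 and -4.04, all below -1. The 4 genotypes overlapped at this age.

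**Figure D1:**
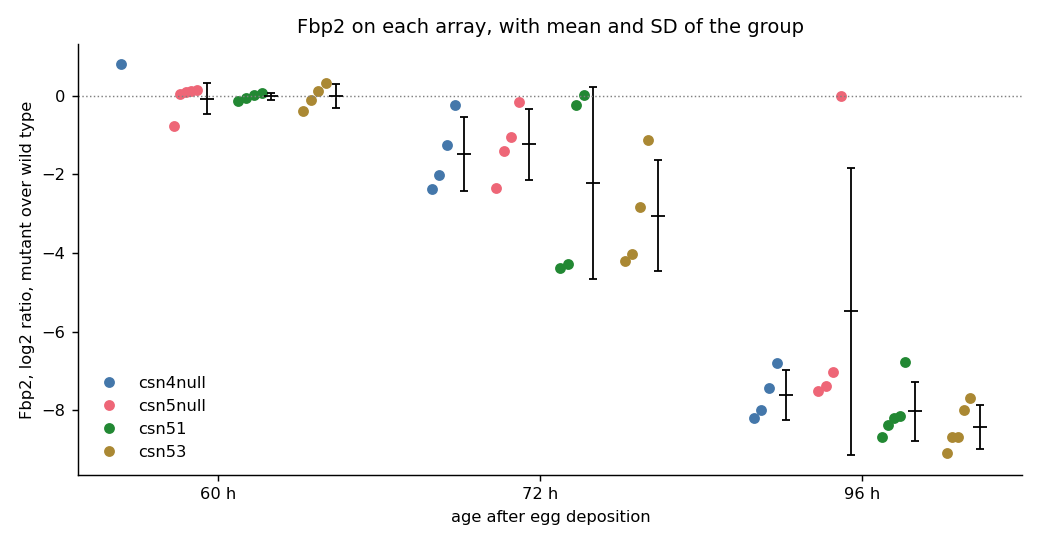
Log2 ratio of Fbp2, mutant over wild type, on each of the 48 arrays with a value, by age after egg deposition and genotype, with the mean and SD of each group drawn beside its points. Values at 60 h lie between -0.79 and 0.81, those at 72 h spread between -4.38 and 0.01, and all but 1 of those at 96 h lie at or below -6.76; the exception is the array labelled csn5null replicate 3 at -0.01.

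Fbp2 fell at 72 h in csn51, to a fitted log2 ratio of -2.40 ± 0.68 (SE; limma, adjusted p = 0.00522), and in csn53, to -3.05 ± 0.67 (adjusted p = 0.000558). The shares of all features called lower there were 16.9% and 14.2%. The call in csn51 rests on replicates 1 and 2: without replicate 1 the fitted value was -1.81 (adjusted p = 0.0864), and without replicate 2 it was -1.64 (adjusted p = 0.104). Neither null passed the threshold, with -1.48 ± 0.67 in csn4null (adjusted p = 0.109) and -1.24 ± 0.67 in csn5null (adjusted p = 0.211), where 12.4% and 9.44% of features were called lower. Without the 3 csn5null arrays that stood apart, the residual SD of Fbp2 was 1.00 and not 1.41, and both nulls passed, at -1.48 in csn4null (adjusted p = 0.0165) and -1.55 in csn5null (adjusted p = 0.0431).

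The spread of Fbp2 at 72 h was large beside that of other features. Its SD between replicates was 0.94 in csn4null, 0.91 in csn5null, 2.44 in csn51 and 1.42 in csn53, above that of 99.3%, 95.4%, 99.7% and 98.7% of features. In each of the 4 genotypes replicate 3 was the array nearest to 0 or above it. By replicate number the means over genotypes were -3.30, -2.47, -0.38 and -1.84 for numbers 1 to 4. In the labels the wild-type RNA at 72 h carries the same number as the mutant replicate, save for csn4null replicate 1, whose wild type has none. Whether one wild-type extract served several genotypes is not stated, so the genotypes at one age are not shown to be independent of each other. The dye orientation partly follows the replicate number: at 72 h the arrays with mutant RNA in Cy3 and in Cy5 averaged -1.82 and -1.14 in csn4null, -1.88 and -0.61 in csn5null, -4.29 (1 array) and -1.54 in csn51, and -3.51 and -2.59 in csn53. A dye coefficient was part of the fit. The part of the shared numbers in the spread was not tested.

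**Figure D2:**
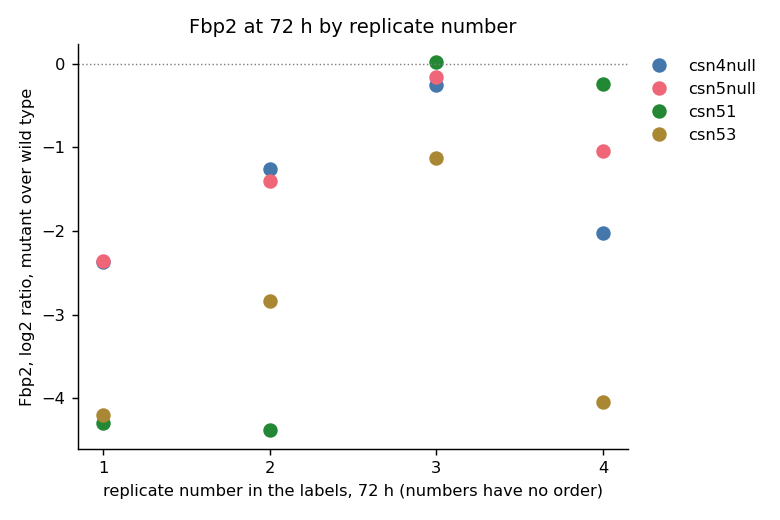
Log2 ratio of Fbp2 at 72 h against the replicate number in the labels, 1 point per array, coloured by genotype; the numbers have no order. Number 3 holds the highest value of each genotype, between -1.13 and 0.01, and number 1 holds values between -4.29 and -2.36.

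At 96 h Fbp2 was among the most reduced features of the whole array in every genotype. In replicates 1 to 4 the log2 ratios were -8.21, -7.43, -8.00 and -6.80 in csn4null. In csn5null they were -7.02, -7.52, -0.01 and -7.40, so that 3 arrays lay with those of csn4null and replicate 3 lay next to 0. The 5 csn51 arrays had -6.76, -8.68, -8.14, -8.38 and -8.20. The 5 csn53 arrays had -7.68, -8.69, -8.67, -8.00 and -9.09, the last of which is a ratio 545-fold below wild type. Fbp2 was below 0 on all 18 arrays and below -1 on 17. It had the lowest value of all features on 14 of the 18 arrays, and on the 17 arrays other than the array labelled csn5null replicate 3 it was never higher than the third lowest. On the array labelled csn5null replicate 3 it ranked 2869 from the lowest.

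The fitted log2 ratios at 96 h were -7.61 ± 0.67 in csn4null (SE; limma, adjusted p = 1.4e-11), -5.49 ± 0.67 in csn5null (adjusted p = 2.3e-07), -8.10 ± 0.60 in csn51 (adjusted p = 3.0e-14) and -8.50 ± 0.60 in csn53 (adjusted p = 2.6e-14). These correspond to ratios 195-fold, 44.9-fold, 274-fold and 361-fold below wild type. The shares of all features called lower were 16.3% in csn4null, 7.79% in csn5null, 28.2% in csn51 and 19.5% in csn53. Without the array labelled csn5null replicate 3 the value in csn5null was -7.25 ± 0.55 (adjusted p = 9.0e-13), and without all 3 arrays that stood apart it was -7.26, 153-fold below wild type (adjusted p = 2.1e-12). With the csn5null 96 h arrays fitted alone, all 4 of them, the value of -5.49 had an adjusted p of 0.0606. The replicates averaged -7.61 ± 0.63 (csn4null, n = 4), -5.49 ± 3.66 (csn5null, n = 4), -8.03 ± 0.74 (csn51, n = 5) and -8.43 ± 0.57 (csn53, n = 5; all SD). No other feature had a larger SD in csn5null at this age.

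Fbp2 had the lowest fitted value of all features tested in csn4null, csn5null and csn53. The next lowest were Cyp28a5, a cytochrome P450 gene, at -4.77 in csn4null, and features with no gene name at -3.22 in csn5null and -5.55 in csn53. In csn51 it was the second lowest, after an unnamed feature at -8.23.

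**Figure D3:**
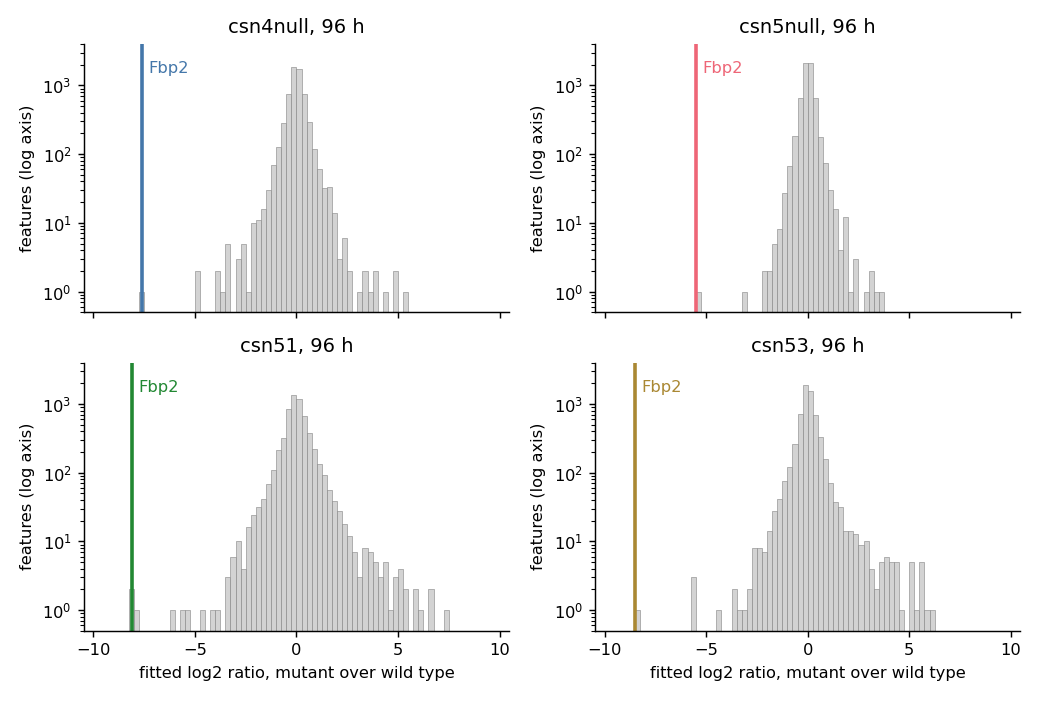
Distribution of the fitted log2 ratios, mutant over wild type, of all features tested at 96 h in each genotype (grey bars, number of features on a log axis), with Fbp2 marked by a vertical line. Fbp2 lies at -7.61 in csn4null, -5.49 in csn5null, -8.10 in csn51 and -8.50 in csn53, at the left end of each distribution.

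From lowest to highest, the genotypes at 96 h stood in the order csn53, csn51, csn4null and csn5null. Of the 6 pairs, those of csn5null with csn51 and with csn53 passed the test of the difference, with csn5null 2.61 higher than csn51 (95% interval 0.79 to 4.44; limma, adjusted p = 0.0228) and 3.01 higher than csn53 (1.18 to 4.84; adjusted p = 0.0170). Features called higher made up 18.2% and 8.6% in these pairs. Both calls rest on the array labelled csn5null replicate 3: without it the differences were 0.82 (adjusted p = 0.386) and 1.22 (adjusted p = 0.242). The difference of csn4null minus csn5null was -2.12 (-4.05 to -0.20; adjusted p = 0.233), and -0.36 without that array (adjusted p = 0.882). The other pairs missed the threshold as well. csn4null minus csn51 was 0.49 (-1.33 to 2.32; adjusted p = 0.739), csn4null minus csn53 was 0.89 (-0.94 to 2.72; adjusted p = 0.615) and csn51 minus csn53 was 0.40 (-1.32 to 2.12; adjusted p = 0.903). Among neighbours in the order, the intervals of csn51 minus csn53 and csn4null minus csn51 included 0 and reached beyond 1 on the log2 scale. The interval of csn4null minus csn5null excluded 0 with all arrays, though its adjusted p missed the threshold. In these pairs 4.91% (csn4null and csn5null), 25.5% (csn4null and csn51), 14.7% (csn4null and csn53) and 4.1% (csn51 and csn53) of features were called in either direction.

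The reduction grew with age in every genotype in which it could be tested. The log2 ratio of Fbp2 at 96 h was below that at 60 h by a fitted -5.34 ± 0.90 in csn5null (SE; limma, adjusted p = 0.000182), -8.08 ± 0.90 in csn51 (adjusted p = 5.9e-09) and -8.48 ± 0.90 in csn53 (adjusted p = 3.3e-09). In csn4null, with 1 value at 60 h, the plain difference was -8.42 and had no test. The features called lower made up 3.67%, 20.7% and 15.9% in the 3 genotypes tested. Without the array labelled csn5null replicate 3 at 96 h the csn5null difference was -7.13 (adjusted p = 4.2e-09), and without all 3 arrays that stood apart it was -7.14. Against 72 h, the ratio at 96 h differed by -6.13 ± 0.95 in csn4null (adjusted p = 5.6e-06), -4.24 ± 0.95 in csn5null (adjusted p = 0.00411), -5.70 ± 0.90 in csn51 (adjusted p = 8.0e-06) and -5.45 ± 0.90 in csn53 (adjusted p = 2.0e-05). The features called lower made up 13.6%, 3.36%, 12.3% and 13%. For csn5null this difference was -6.01 without the 96 h array (adjusted p = 5.5e-07) and -5.71 without all 3. Since each array is a ratio to wild type of its own age, a growing difference can come from either RNA, and the table does not tell a fall in the mutants from a rise in wild type.

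The genes whose pattern was most like that of Fbp2 were found by Pearson's r over the means of the 12 groups. The 4396 named genes compared had a value on at least 2 arrays of every group, a rule not asked of Fbp2 itself. Their median r was 0.04, and 23 genes had r above 0.9 and 13 below -0.9. The 12 points share the rise of the mutant difference with age, and the csn4null 60 h point of Fbp2 is a single array. The 5 most like were CG3961 (r = 0.971), br (0.963), l(2)efl, a small heat shock protein gene (0.962), Tango9 (0.954) and Gapdh1, which encodes a glycolytic enzyme (0.945). Over the 48 single arrays br and CG3961 also came first, with r of 0.927 and 0.926. Of the 5, only these 2 were among the 5 most like over single arrays. By Spearman's rank correlation over the group means 3 were, while Tango9 ranked 17 and Gapdh1 40. Of the 5, 4 remained among the 5 most like when csn4null at 60 h was left out, and 3 when the csn5null arrays that stood apart were left out. The most unlike were Cbs, which encodes cystathionine beta-synthase (-0.968), Lon, a mitochondrial protease gene (-0.965), and Cyp305a1, a cytochrome P450 gene (-0.935).

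The like genes moved far less than Fbp2. Like and unlike genes were chosen on these same group means, so their direction at 96 h follows from the choice. It is no separate result. At 96 h 16.3%, 7.79%, 28.2% and 19.5% of all features were called lower in csn4null, csn5null, csn51 and csn53. Those called higher made up 15.1%, 9.47%, 27% and 21%. At 96 h CG3961 fell in all 4 genotypes, with fitted log2 ratios of -1.90 in csn4null, -0.95 in csn5null, -2.28 in csn51 and -2.04 in csn53. Its values at 72 h were -0.72 in csn4null, -0.44 in csn51 and -0.63 in csn53, all called, and -0.11 in csn5null, not called. br fell at 96 h to -0.65 in csn4null, -0.49 in csn5null, -1.004 in csn51 and -1.006 in csn53, all called, and to no called value at 72 h. l(2)efl, at -0.75, -0.74, -1.31 and -1.20, and Gapdh1, at -0.65, -0.41, -1.19 and -0.97 in the same order of genotypes, were called in all 4. Tango9, at -0.71, -0.28, -0.87 and -0.87, was called in all but csn5null. Of the unlike genes Cbs rose in all 4, with 1.70 in csn4null, 1.15 in csn5null, 1.74 in csn51 and 1.64 in csn53. Lon stood at 0.48, 0.39, 0.64 and 0.47 and Cyp305a1 at 1.87, 0.63, 1.67 and 1.48. Without the 3 arrays that stood apart, the csn5null values were -1.18 for CG3961, -0.62 for br, -0.81 for l(2)efl, -0.24 for Tango9, -0.51 for Gapdh1, 1.41 for Cbs, 0.42 for Lon and 0.79 for Cyp305a1, with every call as before.

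**Figure D4:**
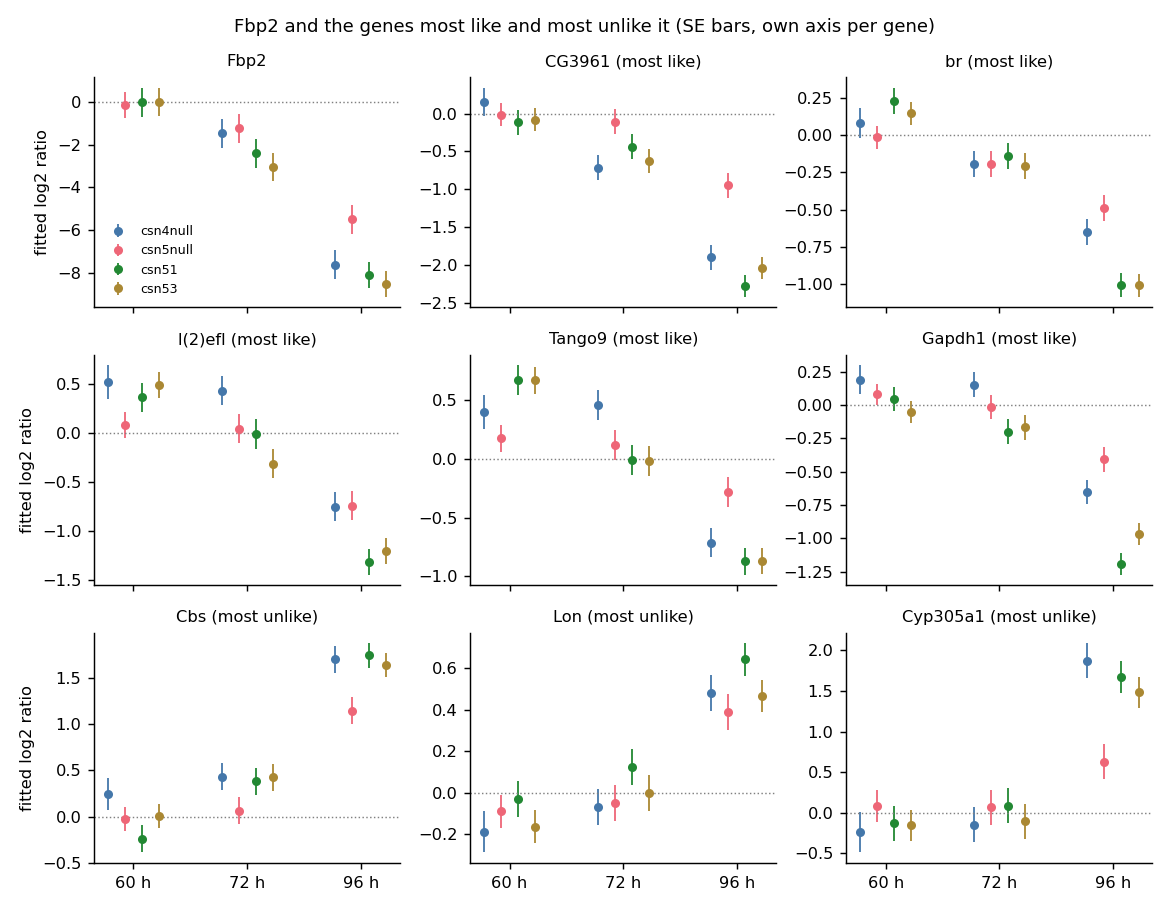
Fitted log2 ratios, mutant over wild type, with SE bars, of Fbp2, the 5 genes most like it and the 3 most unlike it by Pearson's r over 12 group means, by age and genotype; each gene has its own vertical axis. Fbp2 reaches -8.50 at 96 h, whereas the like gene CG3961 reaches -2.28 and br -1.006, and the unlike gene Cbs reaches 1.74.

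Few other fat body genes of the same class could be compared. Of 6 larval serum and fat body protein genes listed (Fbp1, Fbp2, Lsp1alpha, Lsp1beta, Lsp1gamma and Lsp2), Fbp2 alone was among the named entries analysed here, so the defining markers of the third-instar fat body were represented by Fbp2. Of 18 genes listed for fat body lipid handling and blood lipid carriers, 12 were tested at 96 h. These include the clotting gene fon and srp, which is also on the haemocyte list. The fall of srp in csn53 (-0.28) is counted in both lists. In csn4null 6 fell and 1 rose, with a median log2 ratio of -0.34. In csn5null 4 fell and none rose (median -0.29), in csn51 7 fell and 2 rose (median -0.73), and in csn53 7 fell and 2 rose (median -0.48). The medians over all features lay between -0.02 and 0.00. Features called lower made up 16.3%, 7.79%, 28.2% and 19.5% in csn4null, csn5null, csn51 and csn53. Those called higher made up 15.1%, 9.47%, 27% and 21% in the same order. Without the 3 csn5null arrays, 5 fell in csn5null and 8 in csn53. With the csn5null 96 h arrays alone, none of the 12 passed there, where 39 features in all did.

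AkhR, the receptor of the fat-mobilising adipokinetic hormone, fell to -1.55 in csn4null, -0.86 in csn5null, -1.61 in csn51 and -1.60 in csn53. Lsd-1, a coat protein of lipid droplets, fell to -0.996, -1.12, -1.67 and -1.28 in the same order. fon, a clotting protein gene, fell to -0.85, -0.70, -1.16 and -0.77. Mtp, which loads lipid onto carrier particles, fell to -0.57 in csn4null, -0.89 in csn51 and -0.64 in csn53 and stood at -0.07 in csn5null, not called. Without the 3 csn5null arrays the values in csn5null were -1.13 for AkhR, -1.42 for Lsd-1, -0.94 for fon and -0.16 for Mtp, the last again not called. The lowest value among the 12 genes tested was that of FASN1, a fatty acid synthase gene named here after its values were seen, at -1.82 in csn51, against -8.10 for Fbp2 in the same group. Other genes of the list were called higher. These were Desat1 in csn4null (0.39), bmm in csn51 (0.86) and csn53 (0.63), and Lpin in csn51 (0.52) and csn53 (0.63). They too are named after their values were seen.

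Of 12 alcohol dehydrogenase and short-chain dehydrogenase genes listed, 6 were tested (5 in csn51). In csn4null 1 fell, in csn5null 1 fell and 3 rose, and in csn51 and csn53 3 fell each, with medians of -0.06, 0.16, -0.28 and -0.15. Over all features the shares called lower were 16.3%, 7.79%, 28.2% and 19.5% in csn4null, csn5null, csn51 and csn53, and those called higher were 15.1%, 9.47%, 27% and 21%. DhpD, which fell in all 4 genotypes (-0.92, -0.73, -0.57 and -0.55), is known as a dihydropterin deaminase and not as a dehydrogenase. The counts and medians include it. It was the only gene of the list that fell in csn4null and csn5null, and 1 of the 3 in csn51 and in csn53. sni, a carbonyl reductase gene of the family, stood at 0.04 in csn4null, not called. It rose to 0.38 in csn5null and fell to -0.38 in csn51 and -0.34 in csn53. Without the 3 csn5null arrays, DhpD stood at -0.98 and sni at 0.39 in csn5null, both called.

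Of 16 genes of the ecdysone receptor and the early response, 7 were tested at 96 h. br and EcR fell in all 4 genotypes, EcR to -0.98 in csn4null, -0.82 in csn5null, -0.75 in csn51 and -0.99 in csn53. No other gene of the list was called in the 2 nulls. In csn51 and csn53 usp also fell, to -0.42 and -0.31, and 2 rose. These were Hr3 and ftz-f1, nuclear receptor genes of the ecdysone response that are named here after their values were seen. Hr3 stood at 0.17 in csn4null and 0.06 in csn5null, not called, and rose to 1.75 in csn51 and 1.55 in csn53. Its difference of csn4null minus csn51 was -1.58 (limma, adjusted p = 0.000739) and that of csn5null minus csn51 was -1.69 (adjusted p = 0.000227), or -1.68 without the 3 csn5null arrays (adjusted p = 0.000537). EcR stood at -0.74 in csn5null without them and was called. ftz-f1 stood at 0.26 and 0.15 in csn4null and csn5null, not called, and rose to 1.35 in csn51 and 1.42 in csn53. The list medians were -0.11, -0.13, -0.04 and -0.03 in csn4null, csn5null, csn51 and csn53. In the same order 16.3%, 7.79%, 28.2% and 19.5% of all features were called lower. Those called higher made up 15.1%, 9.47%, 27% and 21%. Fbp2, like br and EcR, passed as lower in all 4 genotypes, but so did AkhR, DhpD, PPO1 and Mal-A5 of other lists. Moreover, br had been picked for its likeness to Fbp2. The share of all features that passed in all 4 was not counted.

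Of 18 ecdysone-inducible late genes, 5 were tested at 96 h. None passed in the nulls, 4 rose in csn51 and 2 rose in csn53, with medians of 0.30 in csn4null, 0.00 in csn5null, 0.66 in csn51 and 0.48 in csn53. Over all features 15.1%, 9.47%, 27% and 21% were called higher in csn4null, csn5null, csn51 and csn53. ImpL1, a gene induced by ecdysone in imaginal discs, rose to 5.81 ± 1.03 (SE) in csn51 and 5.53 ± 0.65 in csn53. ImpL1 stood at 1.32 ± 0.85 in csn4null and 0.00 ± 0.73 in csn5null, not called. ImpE2, another such gene, rose to 5.05 ± 0.78 (SE) and 4.56 ± 0.60 in csn51 and csn53. It stood at 1.05 ± 0.78 and 0.07 ± 0.78 in csn4null and csn5null. Neither ImpL1 nor ImpE2 had a value on every array of csn51 or of csn4null. Their values there rest on fewer arrays than the group holds. Without the 3 csn5null arrays, 1 passed in csn5null and 4 in csn53. Of 12 ecdysteroid synthesis genes only mld was tested, at 0.06 in csn4null and -0.08 in csn5null, not called, and higher in csn51 (0.28) and csn53 (0.37). None of 10 salivary gland glue genes was tested.

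**Figure D5:**
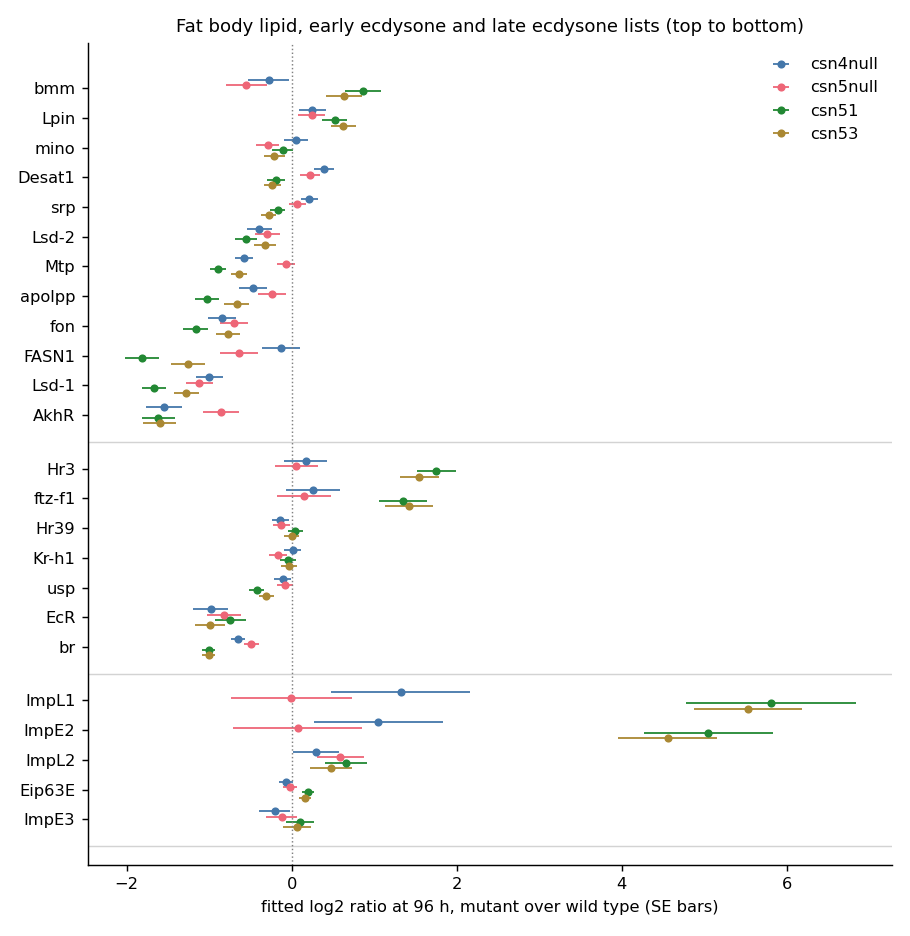
Fitted log2 ratios at 96 h, mutant over wild type, with SE bars, of the measured genes of 3 lists from top to bottom: fat body lipid and carrier genes, ecdysone receptor and early response genes, and ecdysone-inducible late genes. AkhR and EcR are below 0 in all 4 genotypes, whereas ImpL1 and ImpE2 are above 4.5 in csn51 and csn53 alone.

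Markers of other larval tissues moved at the same age. Of 13 haemocyte and melanization genes 5 were tested, and 3, 3, 4 and 3 fell in csn4null, csn5null, csn51 and csn53, with medians of -2.68, -0.58, -1.30 and -0.28 and none higher. PPO1, a prophenoloxidase gene of crystal cells, stood at -3.46, -1.73, -2.17 and -0.90, all called, with -2.21 in csn5null without the 3 arrays. Of 14 midgut genes 5 were tested, and 2, 2, 4 and 3 fell, with medians of -0.43, -0.08, -2.08 and -1.68, while 1 rose in each null. Of 12 muscle genes 5 were tested. All 5 fell in csn51 and in csn53 (medians -0.57 and -0.54), while 2 rose in csn4null and none passed in csn5null (medians 0.17 and -0.01). Of 14 cuticle genes 6 were tested, and 1, 1, 3 and 4 rose in csn4null, csn5null, csn51 and csn53, with 1 fall, in csn51. Their medians were 0.07, 0.01, 0.75 and 0.82. Over all features 16.3%, 7.79%, 28.2% and 19.5% were called lower in csn4null, csn5null, csn51 and csn53. In the same order 15.1%, 9.47%, 27% and 21% were called higher. TwdlL of the cuticle list stood at 5.34, 3.26, 7.26 and 5.61 in csn4null, csn5null, csn51 and csn53, all called. Amyrel of the midgut list rose to 3.78 in csn4null and 2.15 in csn5null. It was called in neither csn51 (0.76) nor csn53 (-0.36). Mal-A5 of the midgut list fell to -2.16 in csn4null, -1.59 in csn5null, -2.08 in csn51 and -1.73 in csn53, all called. Over single arrays its r with Fbp2 was 0.881, among the 5 highest. The part of these shifts in the ratio of Fbp2 was not tested.

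Fbp2 lies on chromosome arm 2L in the RefSeq gene table. The 3 nearest genes measured on each side are borr, Ggamma30A and Cks30A on one and scat, numb and Gdi on the other. The first 3 lie 174, 124 and 95 kb away, the others 3.5, 9.6 and 63 kb. At 96 h 16.3%, 7.79%, 28.2% and 19.5% of all features were called lower in csn4null, csn5null, csn51 and csn53. In csn5null 9.47% were called higher. Cks30A, a gene for a cyclin-dependent kinase subunit, fell at 96 h to -1.30 in csn4null, -1.17 in csn5null, -1.19 in csn51 and -1.22 in csn53, and without the 3 arrays it stood at -1.47 in csn5null. scat, the nearest of the 6, fell to -0.44 in csn4null, -0.31 in csn51 and -0.20 in csn53 and stood at -0.12 in csn5null, not called. numb, an inhibitor of Notch signalling, was called in none, with values between -0.10 and 0.05. Gdi, a regulator of Rab proteins, fell to -0.36 in csn4null, -0.48 in csn51 and -0.32 in csn53. It stood at -0.05 in csn5null (0.04 without the 3 arrays), not called. borr fell to -0.30 in csn4null and -0.25 in csn53 and stood at -0.07 in csn5null and -0.13 in csn51, not called. Ggamma30A, a G protein gamma subunit gene, rose to 0.73 in csn5null (0.95 without the 3 arrays) and was called in no other genotype.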

How the data were processed

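TRIZOL extracts of total larval RNA were labelled with Cy3 and Cy5 by amino-allyl coupling and hybridised in pairs, per the labels. The authors deposited 1 table of log ratios of the 2 channels. How background, normalization and filters were handled, and the genome build used, were not given in the sources used here, nor was the logarithm's base. The log2 scale was assumed for the deposited values: base 10 would make the largest absolute value, 10.4, a ratio no scanner measures, whereas a natural logarithm cannot be told apart and would make all log2 values larger by one factor. Array medians lay between -0.02 and 0.03. Each array had values for 5805 to 6593 entries. The number of arrays limits the precision. Replicates are called biological in the labels, and the number of larvae per extract is not given.

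Signs were turned on all arrays alike, towards the likely direction of mutant over wild type. Control entries (32) and entries without a value (28) were left out, and the entries of the 324 genes that had several were averaged within each array (Fbp2 has 1), which left 6187 features, 1489 of them unnamed. A single gene symbol was listed for 5072 of the 6621 entries, several for 176 and none for 1373. By gene ID, 4993 matched the RefSeq table of Drosophila genes, which gave names and the order of genes. The main test was limma 3.58.1 (R 4.3.3, statmod 1.5.0), lmFit and eBayes, with 12 group coefficients and 1 dye coefficient over all arrays, for features with at least 2 arrays with a value per group. The Benjamini-Hochberg adjustment ran over all features tested in a comparison, and calls needed an adjusted p under 0.05. Fbp2 had a residual SD of 1.41, against a median of 0.257 over all features. The fit drops missing values and imputes none, so the 3 arrays without a value of Fbp2 do not enter its fit. The fit was tested on simulated data. Python 3.11.15 with matplotlib 3.10.9 drew the figures.

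The gene, the lists and the arrays set aside were chosen with earlier results of these data known. Named genes are Fbp2, CSN4, CSN5, the 5 most like and 3 most unlike genes, for each list the 4 members (or fewer) with the smallest adjusted p in csn4null at 96 h, and the nearest measured neighbours. Outside this rule, Hr3, ftz-f1, FASN1, Desat1, bmm, Lpin and Cyp28a5 were named after their values were seen. A further rule, on genes with similar proteins, was not applied, since protein sequences were not used here. Lists are described by counts and medians, without a test. Alternatives were no dye coefficient, each comparison on its own arrays, centred or scaled arrays, a value on every array, single entries, array weights, the replicate number or the wild-type number as a block, robust eBayes, leaving out the 3 csn5null arrays and leaving out each array.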

Additional observations from a re-analysis of the deposited data

Results flagged for a closer look

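In groups of 4 to 10 arrays, an array was marked when its gap to the nearest other array exceeded the critical share of the group's range. Of 33 groups of values tested for Fbp2, CSN4 and CSN5, 6 were marked, and chance marks about 1 group in 20. For Fbp2 these were the lowest csn5null array at 60 h, at -0.79 with a gap of 0.908 of the range, the highest csn5null array at 96 h, at -0.014 with 0.934, and the highest csn51 array at 96 h, at -6.76 with 0.716. Of these, csn5null at 96 h is replicate 3, one of the arrays that stood apart, whereas csn5null at 60 h is replicate 4, which did not. For the targeted genes they were CSN4 at -3.05 on the lowest csn4null array at 72 h, CSN5 at -0.66 on the lowest csn51 array at 60 h and CSN5 at -0.32 on the highest csn5null array at 72 h.

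The mutant difference of Fbp2 differed between ages in every comparison tested (limma). The ratio at 96 h minus that at 72 h was -6.13 in csn4null, -4.24 in csn5null, -5.70 in csn51 and -5.45 in csn53. The ratio at 96 h minus that at 60 h was -5.34 in csn5null, -8.08 in csn51 and -8.48 in csn53. Between genotypes at 96 h, csn5null was higher than csn51 by 2.61 and higher than csn53 by 3.01, and neither passed without the array labelled csn5null replicate 3.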

How the results depend on the processing

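Over 24 results for Fbp2 and their alternatives, 400 of 426 values kept their direction and their side of the threshold. The falls at 96 h in csn4null, csn51 and csn53 passed under all 11 alternatives, between -7.61 and -7.43, between -8.34 and -5.89 and between -8.56 and -8.43, and with any 1 array left out. With each comparison on its own arrays, csn5null no longer passed at 96 h (-5.49, adjusted p = 0.0606), nor at 96 h minus 60 h (-5.41, 0.053), nor at 96 h minus 72 h (-4.24, 0.247), nor did csn5null minus csn51 (2.54, 0.239), csn5null minus csn53 (2.94, 0.161) or csn51 at 72 h (-2.23, 0.121), while csn4null at 72 h passed (-1.48, 0.0158). With array weights, csn4null (-1.44, 0.031) and csn5null (-1.54, 0.00911) passed at 72 h, csn5null minus csn51 did not (1.67, 0.089), and csn53 at 60 h changed sign (0.0051). With scaled arrays, csn5null minus csn51 did not pass (0.22, 0.914), and csn4null minus csn51 changed sign (-1.54, 0.349). Without the 3 csn5null arrays, csn4null (-1.48) and csn5null (-1.55) passed at 72 h, and csn5null minus csn51 (0.81, 0.384) and minus csn53 (1.20, 0.235) did not. The own-array fits estimate the spread from fewer arrays, and for the other alternatives the cause was not tested.

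Leaving out 1 array at a time, csn51 at 72 h ranged between -3.08 and -1.64, passing in 2 of 4 fits, csn5null minus csn51 between 0.82 and 3.40, and csn5null minus csn53 between 1.22 and 3.80. Values near 0 changed sign in csn5null at 60 h (-0.32 to 0.10), csn51 at 60 h (-0.16 to 0.13), csn53 at 60 h (-0.11 to 0.057) and csn51 minus csn53 (-0.042 to 0.70).

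Replicate numbers were not taken to pair the samples. The rule was that every same-numbered pair of arrays correlate above 0.1 in its deviations. It was met in 0 of 18 pairs of genotypes at an age (71 pairs of arrays, between -0.56 and 0.61). At 72 h 8 of 16 arrays correlated best with their own number. The highest value, 0.61, was that of number 3 in csn51 and csn53 at 72 h. Since the rule asks this of every pair, it cannot exclude that some numbers shared RNA. With the replicate number as a block (consensus correlation 0.0065) the values at 96 h were -7.61 in csn4null, -5.49 in csn5null, -8.10 in csn51 and -8.50 in csn53, and no call on Fbp2 changed.

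Counts of features called, given as all arrays, then lowest and highest over the alternatives other than leaving out 1 array, moved by over 1.5 times as follows. In csn4null they were 1050, 78 and 2599 at 60 h and 734, 679 and 1759 for 96 h minus 60 h, where Fbp2 was not tested. In csn5null they were 491, 407 and 2421 at 60 h, 1099, 1 and 2171 at 72 h, 1068, 39 and 1688 at 96 h, 456, 229 and 1974 for 96 h minus 60 h, and 489, 0 and 1141 for 96 h minus 72 h (limma on own arrays, where 827 features had an unadjusted p under 0.05). In csn51 they were 2251, 1378 and 2820 for 96 h minus 60 h and 1497, 878 and 2430 for 96 h minus 72 h. In csn53 they were 1854, 959 and 2964 at 72 h, 1940, 1649 and 3348 for 96 h minus 60 h and 1501, 1411 and 3013 for 96 h minus 72 h. Between genotypes at 96 h they were 304, 149 and 583 (csn4null and csn5null), 1513, 790 and 2164 (csn4null and csn51), 908, 875 and 1819 (csn4null and csn53), 2003, 1119 and 2377 (csn5null and csn51), 1051, 956 and 1922 (csn5null and csn53) and 243, 40 and 845 (csn51 and csn53). Leaving out 1 array, the counts ranged from 300 to 886 for csn5null at 60 h, 582 to 1423 at 96 h, 221 to 953 for 96 h minus 60 h, 205 to 689 for 96 h minus 72 h and 182 to 321 for csn4null and csn5null. Signal over background is unknown, so the size of the fall at 96 h cannot be set against a detection limit.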
